A study of Mus musculus with 24 samples.

Results

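The Schlafen genes were followed in B16 mouse melanoma tumours through the 7 members that the array measures: Slfn1, Slfn2, Slfn3, Slfn4, Slfn5, Slfn8 and Slfn9. They were chosen by symbol, as probesets assigned to exactly 1 gene, and are 7 of 19938 genes tested. Each has a single probeset, and 7 of 7 lie above the array's 40th percentile on at least 4 arrays. Levels are log2 intensities, so a difference of 1 is a doubling, and levels of different genes are not compared because probesets differ in brightness.

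Tumours were grown from 500000 B16 cells injected subcutaneously into mice aged 6 to 12 weeks. Animals of both treated arms were irradiated 10 to 14 days afterwards (5 Gy, whole body) and given 100000 CD8+ T cells of the pmel-1 line, whose receptor recognises a melanocyte protein encoded by Pmel. The cells were un-transduced (Mock) or had been transduced to make interleukin 12 (IL-12TD). No irradiation and no T cells are given for the third arm, no treatment, so it differs from both treated arms in these as well. Tumours were taken at day 3 or day 7 and made into single-cell suspensions, which gives 6 groups of 4 biological replicates and 24 arrays. One Mock day 7 protocol field gives the earlier day, but the other labels of those samples give day 7, which was used.

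Schlafen genes encode a family of interferon-inducible proteins found in immune cells, in which they are linked to growth arrest, quiescence and responses to nucleic acid. Mouse members fall into short forms (Slfn1 and Slfn2), intermediate forms (Slfn3 and Slfn4) and long forms with a helicase-like domain (Slfn5, Slfn8 and Slfn9). Slfn1 was the founding member, found through growth arrest of thymocytes. Slfn2 keeps T cells quiescent and is needed for their survival, and Slfn4 is a myeloid gene switched on by interferon and Toll-like receptor signals. Interleukin 12 acts on T cells and natural killer cells and drives their release of interferon gamma.

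In RefSeq annotation of GRCm38.p6 the family lies in a cluster at chr11:82942341-83286726. Slfn5 (chr11:82951349-82964850), Slfn2 (chr11:83065112-83070678), Slfn1 (chr11:83116820-83122670), Slfn4 (chr11:83175172-83190216) and Slfn3 (chr11:83191330-83215154) are on the plus strand. Slfn9 (chr11:82974316-82991830) and Slfn8 (chr11:83002125-83020810) are on the minus strand. The members are similar genes, and whether a probe for one also binds the RNA of another was not tested.

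Promoter windows from RefSeq (GRCm38.p6, 250 bases before to 50 after the start) were held for all 7 members, and the stretches shown here end at the base before the window's start. Those of Slfn9 (chr11:82991831-82992010) and Slfn8 (chr11:83020811-83020990), on the minus strand, are shown because they hold the interferon-response core searched for, GAAANNGAA or its reverse complement TTCNNTTTC, in capitals.
Slfn9: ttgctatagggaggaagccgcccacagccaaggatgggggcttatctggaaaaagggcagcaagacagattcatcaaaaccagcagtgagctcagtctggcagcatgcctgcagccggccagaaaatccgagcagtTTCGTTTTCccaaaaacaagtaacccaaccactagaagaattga
Slfn8: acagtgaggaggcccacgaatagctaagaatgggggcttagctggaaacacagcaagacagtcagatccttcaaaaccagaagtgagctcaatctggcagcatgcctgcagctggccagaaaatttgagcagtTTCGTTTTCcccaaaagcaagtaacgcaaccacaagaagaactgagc

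The match in Slfn9 lies 44 to 36 bases before the start and that in Slfn8 47 to 39 bases before it, with identical letters, TTCGTTTTC. The Slfn5 window is built on a start at chr11:82952102, which lies 753 bases inside the gene as given above. It has a match, GAAAAAGAA, 155 to 147 bases before that start and another, on the opposite strand, TTCTCTTTC, 132 to 124 bases before it. Slfn8 has another annotated window, in which the same letters are 135 to 127 bases before the start. Of all 32851 promoter windows of this length, 8.56% held the core and 0.21% held the letters of the Slfn8 and Slfn9 match. The gamma-activated site TTCNNNGAA, which reads the same on both strands, was in 0 member windows, so it overlapped no core match there, and in 8.3% of all windows. The full windows of Slfn8 and Slfn9 were identical at 80.5% of 308 alignment columns, against 41.9% to 49.4% for the other pairs.

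The stretches before Slfn1 (chr11:83116640-83116819), Slfn2 (chr11:83064932-83065111) and Slfn4 (chr11:83175006-83175185), all on the plus strand, are shown because in these 3 genes the IL-12TD day 3 arrays stood above all other arrays. Capitals mark the longest run of letters that the windows share, a comparison made after the values were seen.
Slfn1: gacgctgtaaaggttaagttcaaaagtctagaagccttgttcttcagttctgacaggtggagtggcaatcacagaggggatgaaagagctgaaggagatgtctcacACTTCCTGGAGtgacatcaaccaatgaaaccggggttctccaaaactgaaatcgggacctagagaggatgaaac
Slfn2: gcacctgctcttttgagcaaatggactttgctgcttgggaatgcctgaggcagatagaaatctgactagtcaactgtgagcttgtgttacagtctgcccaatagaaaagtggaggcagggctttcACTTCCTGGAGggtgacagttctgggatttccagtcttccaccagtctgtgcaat
Slfn4: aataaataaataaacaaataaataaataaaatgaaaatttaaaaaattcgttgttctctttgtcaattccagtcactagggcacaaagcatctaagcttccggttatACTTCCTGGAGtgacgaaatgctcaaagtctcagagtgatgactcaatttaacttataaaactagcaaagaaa

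The window of Slfn4 is built on a start 14 bases inside the gene as given above. The shared run of 11 bases starts 74 bases before the start of Slfn1, 55 before that of Slfn2 and 73 before that of Slfn4. It was in 24 of the 32851 windows (0.0731%), and among the members only in these 3. The window of Slfn3, which was not called against Mock on either day, holds a run that differs only in the next-to-last letter. The run was sought in genes picked on their values, and a link between it and the response was not tested. The run extends to 15 bases between Slfn1 and Slfn4. Neither motif searched was found in the windows of Slfn1, Slfn2, Slfn3 or Slfn4, which says only that those letters are not in these windows.

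The labels were checked on marker lists. The mean level of 10 melanocyte markers was between 9.93 and 10.40 in every group, and these include Tyr, Dct and Pmel. With IL-12TD against Mock cells at day 3, 6 of the 10 fell (median -0.40), and 7 fell against no treatment (median -0.51), in comparisons in which Schlafen genes rose. Of all 19938 genes 5154 and 5143 were called lower there. At day 7, when Schlafen genes also rose, 1 of the 10 fell and 0 rose against Mock (median 0.20). Against no treatment 1 fell and 1 rose (median -0.04). Of all genes 1760 and 1716 were called lower at day 7. The mean level of 14 pan-leukocyte markers (such as Ptprc and Coro1a) ranged from 8.04 to 8.44 over the IL-12TD day 3 arrays and from 6.50 to 6.90 over Mock day 3. At day 7 it ranged from 7.60 to 8.08 with IL-12TD and from 5.96 to 6.72 with Mock. The untreated day 3 tumours were uneven, at 6.49, 6.60, 5.80 and 7.46, and replicate 4, the highest of them, is also the highest untreated array for Slfn1, Slfn2, Slfn4, Slfn5 and Slfn8. No processing batch is named in the labels, and an effect of batch cannot be told apart from one of day.

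**Figure D1:**
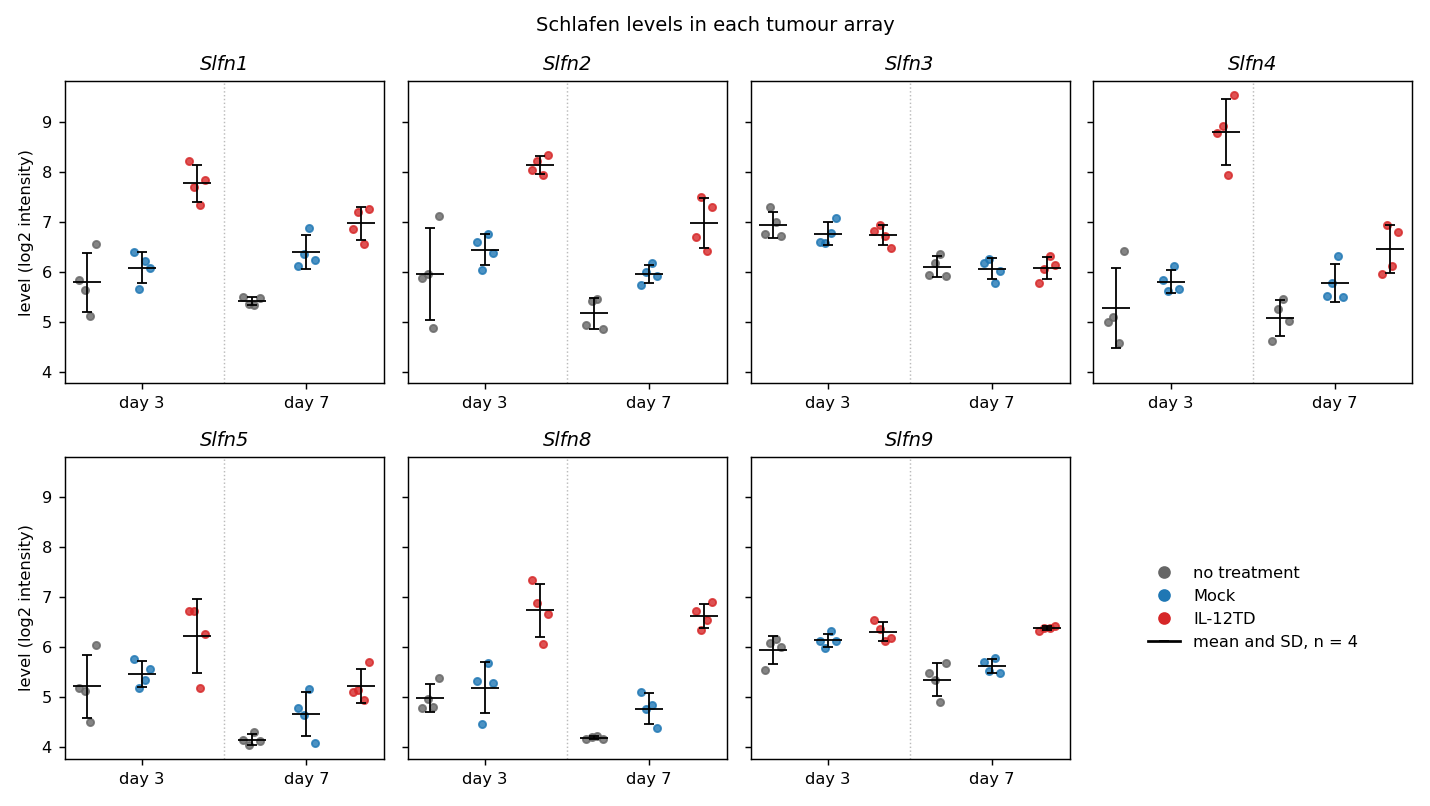
Level of each measured Schlafen gene (log2 intensity) in each of 24 tumour arrays, by day and treatment, with the group mean and SD (n = 4). For Slfn1, Slfn2 and Slfn4 the IL-12TD day 3 arrays lie above every other array, for Slfn8 both IL-12TD groups do, and for Slfn3 all day 3 arrays lie above all day 7 arrays.

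Among the short forms, Slfn1 was measured at 8.21, 7.70, 7.33 and 7.83 in the IL-12TD day 3 tumours and at 6.39, 5.65, 6.22 and 6.07 in Mock day 3. At day 7 it was at 6.86, 7.20, 6.55 and 7.25 with IL-12TD cells, at 6.11, 6.35, 6.88 and 6.23 with Mock cells and at 5.49, 5.36, 5.33 and 5.47 without treatment. In untreated day 3 tumours it was at 5.84, 5.64, 5.12 and 6.56. The IL-12TD day 3 arrays overlapped with no other group, and each remaining group overlapped with its neighbour in the order of means, IL-12TD day 7, Mock day 7, Mock day 3, no treatment day 3 and no treatment day 7.

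Slfn2 had the same highest group. It was at 8.03, 8.22, 7.94 and 8.33 in IL-12TD day 3 tumours, at 6.60, 6.04, 6.76 and 6.38 in Mock day 3 and at 5.87, 5.96, 4.87 and 7.11 in untreated day 3. At day 7 it was at 6.70, 7.49, 6.42 and 7.29 with IL-12TD cells, at 5.74, 5.99, 6.18 and 5.91 with Mock cells and at 4.94, 5.41, 5.45 and 4.86 without treatment. Below IL-12TD day 3 the order of means was IL-12TD day 7, Mock day 3, Mock day 7, no treatment day 3 and no treatment day 7, with overlap between neighbours.

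Of the intermediate forms, Slfn4 had the widest span of group means of the 7, 3.71 on the log2 scale. The IL-12TD day 3 arrays read 8.77, 8.92, 7.94 and 9.54, and the Mock day 3 arrays 5.83, 5.61, 6.12 and 5.65. At day 7 the values were 5.96, 6.94, 6.12 and 6.79 with IL-12TD cells and 5.51, 5.77, 6.31 and 5.49 with Mock cells. Every IL-12TD day 3 array was above every other array, while the 2 transferred-cell groups of day 7 overlapped. Untreated tumours read 5.00, 5.08, 4.57 and 6.42 at day 3 and 4.62, 5.25, 5.45 and 5.00 at day 7, the lowest group means.

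Slfn3, known from the differentiation of gut epithelium, separated by day and not by arm. Its day 3 means were 6.93 ± 0.27 without treatment, 6.76 ± 0.23 with Mock and 6.74 ± 0.20 with IL-12TD cells (SD, n = 4). Its day 7 means were 6.09 ± 0.21, 6.06 ± 0.21 and 6.07 ± 0.22 in the same order of arms. The lowest day 3 array, 6.48, was above the highest day 7 array, 6.35, and the arms overlapped within each day.

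Of the long forms, Slfn8 was at 7.35, 6.88, 6.07 and 6.67 in IL-12TD day 3 tumours and at 6.72, 6.35, 6.55 and 6.91 in IL-12TD day 7 tumours. With Mock cells it was at 5.33, 4.47, 5.68 and 5.28 at day 3 and at 5.11, 4.76, 4.85 and 4.38 at day 7. Without treatment it was at 4.78, 4.97, 4.81 and 5.39 at day 3 and at 4.16, 4.21, 4.23 and 4.16 at day 7. All 8 IL-12TD arrays lay above all others, the 2 IL-12TD groups overlapped with each other, and the untreated day 7 arrays lay below all others.

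Slfn9, the long form next to Slfn8, moved within a narrower span of group means, 1.03. It was at 6.33, 6.40, 6.38 and 6.44 in IL-12TD day 7 tumours and at 5.71, 5.52, 5.80 and 5.49 in Mock day 7. At day 3 it was at 6.55, 6.37, 6.13 and 6.19 with IL-12TD cells, at 6.12, 5.99, 6.32 and 6.14 with Mock cells and at 5.54, 6.09, 6.16 and 6.01 without treatment. Untreated day 7 tumours, at 5.49, 5.34, 4.90 and 5.68, had the lowest mean, and all neighbours in the order of means overlapped.

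Slfn5, the remaining long form and a nuclear protein, was at 6.73, 6.74, 5.18 and 6.27 in IL-12TD day 3 tumours and at 5.77, 5.19, 5.35 and 5.57 in Mock day 3. The third IL-12TD array was as low as the lowest Mock array, so the groups overlapped. At day 7 it was at 5.11, 5.14, 4.95 and 5.71 with IL-12TD cells, at 4.79, 4.65, 5.16 and 4.09 with Mock cells and at 4.14, 4.04, 4.31 and 4.12 without treatment. Untreated day 3 tumours had a mean of 5.22 ± 0.63 (SD, n = 4), and all neighbours in the order of means overlapped.

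IL-12TD against Mock compares transferred cells transduced to make interleukin 12 with un-transduced ones. An effect of transduction itself cannot be told apart here from one of interleukin 12. At day 3, 5 of the 7 Schlafen genes rose and 0 fell, at an adjusted p under 0.05, against 17.3% of all genes called higher. The median difference over the 7 was 1.55, beside 0.02 over all genes. Slfn4 rose 7.94-fold, by 2.99 ± 0.31 (log2 difference ± SE, limma, adjusted p = 3.54e-08), which is rank 35 of the 19938 genes. The short forms rose by like amounts, Slfn2 by 1.69 ± 0.29 (3.22-fold, limma adjusted p = 4.01e-05) and Slfn1 by 1.68 ± 0.23 (adjusted p = 1.98e-06). Slfn8 rose by 1.55 ± 0.22 (2.93-fold, adjusted p = 4.84e-06). For these 4 genes the IL-12TD and Mock arrays did not overlap, and overlap was not counted over all genes. All values are of whole tumour suspensions, in which more cells of a type and more RNA per cell cannot be told apart.

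Slfn5 was called at day 3 by a small margin, with a difference of 0.76 ± 0.28 (1.70-fold, limma adjusted p = 0.0316). Without Mock day 3 replicate 2, 3 or 4, or without IL-12TD day 3 replicate 1, 2 or 4, its difference was between 0.59 and 0.79 with adjusted p from 0.05 to 0.114, and testing all probesets of the array gave 0.0646. Slfn9 did not pass at day 3, with a difference of 0.17 and a 95% interval from -0.13 to 0.47. A second quantile normalization gave it 0.38 (limma adjusted p = 0.0385). The day 3 difference of Slfn3 was -0.02, with an interval from -0.34 to 0.29.

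At day 7, 3 of the 7 rose and 0 fell, against 12.9% of all genes called higher, with a median of 0.68 over the 7 and -0.08 over all genes. Slfn8 rose 3.62-fold, by 1.85 ± 0.22 (limma adjusted p = 4.77e-07). Slfn2 rose by 1.02 ± 0.29 (2.03-fold, limma adjusted p = 0.0111) and Slfn9 by 0.75 ± 0.15 (1.69-fold, limma adjusted p = 0.000427). In all 3 the 2 groups' arrays did not overlap, which again was not counted over all genes. Slfn4, with the largest day 3 difference of the family, had a day 7 difference of 0.68 ± 0.31 (adjusted p = 0.119), and Slfn5 one of 0.56 ± 0.28 (adjusted p = 0.161). Slfn1 had 0.57 ± 0.23 (adjusted p = 0.0727), which became 0.73 (0.0344) without Mock day 7 replicate 3 and 0.71 (0.0434) without IL-12TD day 7 replicate 3. A fit on the compared groups alone gave Slfn1 an adjusted p of 0.0472. Slfn3 differed by 0.02, with an interval from -0.30 to 0.33.

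**Figure D2:**
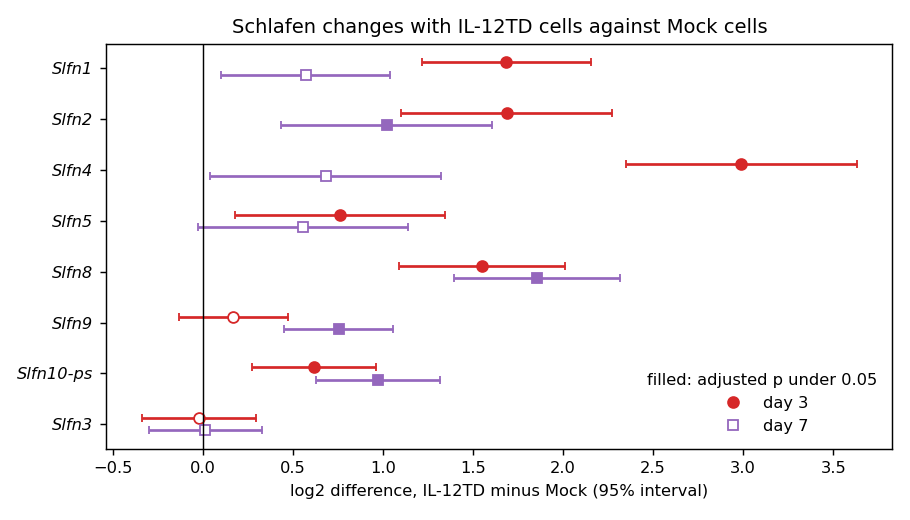
Log2 difference between IL-12TD and Mock tumours with its 95% interval for the measured Schlafen genes and the pseudogene Slfn10-ps, at day 3 (circles) and day 7 (squares). Filled symbols passed an adjusted p under 0.05, and Slfn4 has the largest gap between the days, 2.99 against 0.68.

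Whether the response to IL-12TD cells differed between the days was tested directly, as the day 7 difference minus the day 3 difference. The response of Slfn4 fell by 2.31 ± 0.44 (limma adjusted p = 0.000343), the 16th lowest value among all genes. The response of Slfn1 fell by 1.11 ± 0.32 (adjusted p = 0.00827). The response of Slfn9 rose, by 0.59 ± 0.21 (adjusted p = 0.0267). Over all genes 24.1% were called higher and 18.4% lower in this test, so 1 of 7 members higher and 2 of 7 lower are shares near the background. The Slfn9 result did not pass with a second quantile normalization (0.39, adjusted p = 0.154), nor without Mock day 3 replicate 3 (0.53), IL-12TD day 3 replicate 3 (0.53), Mock day 7 replicate 2 (0.55) or Mock day 7 replicate 4 (0.54). For Slfn2 the change in response was -0.67 (interval from -1.50 to 0.16), for Slfn8 0.31 (-0.34 to 0.95), for Slfn5 -0.20 (-1.03 to 0.62) and for Slfn3 0.04 (-0.41 to 0.48).

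Untreated tumours were compared with the same IL-12TD arrays as Mock, so these results share samples with those above. Here 5 of 7 members rose at day 3 (16.1% of all genes called higher) and 6 of 7 at day 7 (11.8%). Slfn4 rose 11.5-fold at day 3, by 3.52 ± 0.31 (limma adjusted p = 1.71e-09), and 2.59-fold at day 7, by 1.37 ± 0.31 (adjusted p = 0.00178). Slfn8 rose by 1.75 ± 0.22 at day 3 and by 2.44 ± 0.22, or 5.41-fold, at day 7 (adjusted p = 2.27e-09). Slfn1, Slfn2 and Slfn5 were called on both days, with differences of 1.98, 2.18 and 1.01 at day 3 and 1.55, 1.81 and 1.08 at day 7. Slfn9 was called at day 7 (1.03 ± 0.15) and missed the threshold at day 3 (0.36 ± 0.15, limma adjusted p = 0.051). It passed at day 3 without untreated day 3 replicate 3 (0.43), without IL-12TD day 3 replicate 3 (0.42) or 4 (0.40), and with quantile (0.56), median-centred (0.38) or dim-filtered data (0.36). Slfn3 differed by -0.20 (interval from -0.51 to 0.12) at day 3 and -0.02 at day 7.

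Mock cells with irradiation, against no treatment, gave 0 of 7 members called in limma at either day, where 0 of 19938 genes (0%) were called. At an unadjusted p under 0.05 there were 329 genes and 0 members at day 3, and 2767 genes and 4 members at day 7. A second quantile normalization called 9 genes at day 7 and array weights called 6 there and 1 at day 3, and 0 members were called under any alternative run. The 4 members were Slfn1 at 0.98 (limma adjusted p = 0.158), Slfn2 at 0.79 (0.253), Slfn4 at 0.69 (0.336) and Slfn8 at 0.58 (0.271). In these 4 the Mock day 7 arrays all lay above the untreated day 7 arrays. Since they were picked by p in this same comparison, that adds no support, and overlap was not counted over all genes.

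Between day 3 and day 7 the Schlafen genes fell or were not called in each arm. In IL-12TD tumours 5 of 7 fell (21.6% of all genes called lower): Slfn4 fell by 2.34 ± 0.31 (limma adjusted p = 1.48e-06), Slfn2 by 1.16 ± 0.29, Slfn5 by 1.00 ± 0.28, Slfn1 by 0.80 ± 0.23 and Slfn3 by 0.67 ± 0.15. Slfn8 and Slfn9 were not called there, with differences of -0.11 (interval from -0.57 to 0.35) and 0.08 (-0.23 to 0.38). In Mock tumours 3 of 7 fell (27.1%), Slfn3 by 0.70, Slfn5 by 0.80 and Slfn9 by 0.51. In untreated tumours 5 of 7 fell (24.2%), Slfn3 by 0.84, Slfn5 by 1.07, Slfn8 by 0.79, Slfn9 by 0.60 and Slfn2 by 0.79. The count in Mock tumours is nearer to the background than those in the other arms.

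Cell markers and interferon genes moved over the same days, and their part in the Schlafen falls was not tested. In untreated tumours 11 of 14 pan-leukocyte markers fell (median -0.79), as did 10 of 12 monocyte and macrophage markers (median -1.09) and 10 of 15 interferon pathway genes (median -0.48). In Mock tumours 3, 6 and 11 of the same lists fell. In IL-12TD tumours 6 of 14 pan-leukocyte, 4 of 12 monocyte and macrophage and 7 of 10 neutrophil markers fell (neutrophil median -0.73), while of the interferon genes 5 fell and 4 rose.

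Several of these falls depended on single arrays. The untreated fall of Slfn2 became -0.40 (limma adjusted p = 0.22) without day 3 replicate 4, the tumour with the highest leukocyte markers of its group. It also missed the threshold without day 3 replicate 2 (-0.78), day 7 replicate 1 (-0.71) or day 7 replicate 4 (-0.68), and with 5 of the 9 alternative settings. Slfn1 in untreated tumours passed without day 3 replicate 3 (-0.60). In Mock tumours Slfn5 missed it without day 3 replicate 1 (-0.70) or day 7 replicate 4 (-0.60). Slfn8 passed there without day 3 replicate 2 (-0.66) or after a second quantile normalization (-0.57), and Slfn2 (-0.49) in a fit on the Mock groups alone.

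The other Schlafen symbols on the array were read by the same rule. Slfn10-ps, a pseudogene at chr11:83028123-83040533 between Slfn8 and Slfn2, rose with IL-12TD against Mock cells by 0.62 ± 0.17 at day 3 (limma adjusted p = 0.00447) and by 0.98 ± 0.17 at day 7 (adjusted p = 9.53e-05). Its arrays did not overlap between the groups on either day. Slfn5os, a non-coding gene that overlaps Slfn5 on the opposite strand, differed by 0.32 (adjusted p = 0.164) at day 3 and -0.09 (adjusted p = 0.738) at day 7. Slfnl1, a Schlafen-like gene on chromosome 4, differed by 0.02 and -0.05.

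Of the protein-coding genes that were measured and lie wholly outside the cluster, the 10 nearest, 5 on each side, gave 0 higher calls on either day. Over all genes 17.3% were called higher at day 3 and 12.9% at day 7, so 0 of 10 is not far from the background. At day 3, 5154 of all 19938 genes were called lower. Lig3, a DNA ligase, fell by 0.74 ± 0.12 at day 3 (limma adjusted p = 2.67e-05), and Rad51d, a recombination gene, fell by 0.38 ± 0.12 (adjusted p = 0.0139). At day 7, 0 of the 10 were called in either direction. Among the genes read here the higher calls lay from Slfn5 to Slfn4, with Slfn3, beside Slfn4, at -0.02 and 0.02. With so few neighbours, whether the higher calls end at the cluster cannot be told.

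**Figure D3:**
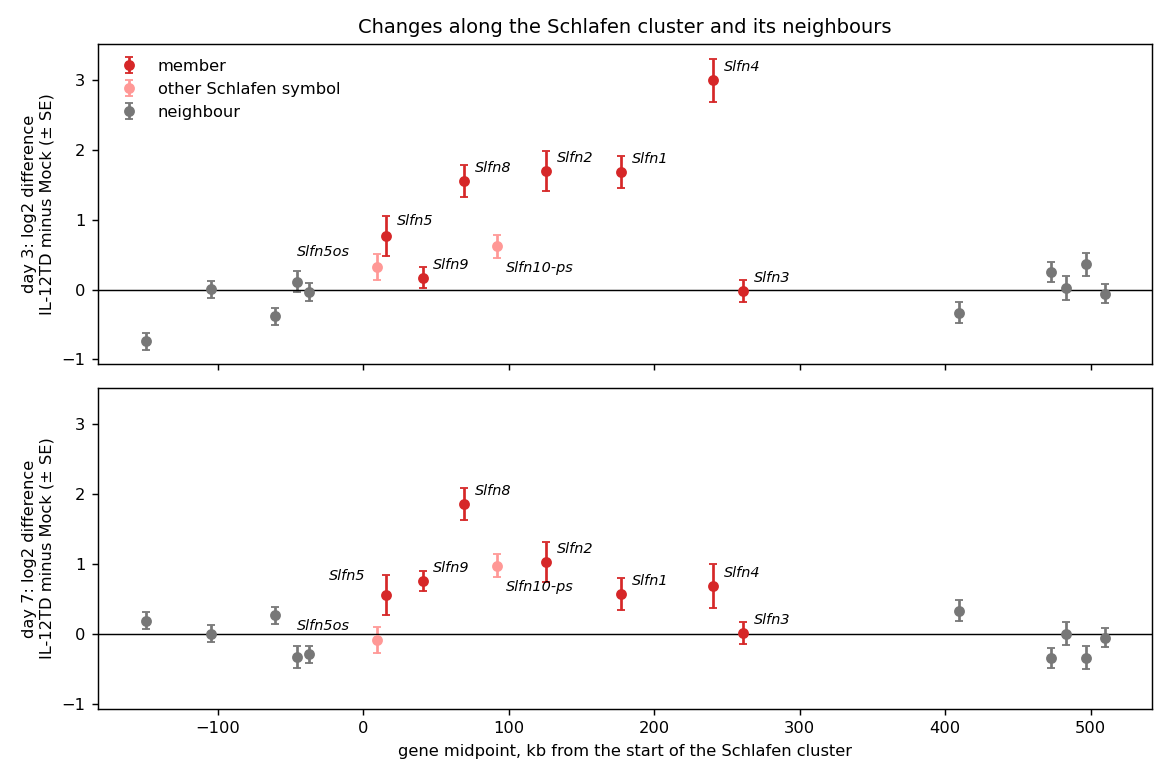
Log2 difference between IL-12TD and Mock tumours (± SE of the limma fit) against the gene's midpoint in kb from the start of the Schlafen cluster, at day 3 (top) and day 7 (bottom). The 10 neighbours (grey) lie between -0.74 and 0.36, below the members that were called.

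Leukocyte markers moved with the Schlafen genes. All 14 pan-leukocyte markers rose with IL-12TD against Mock cells on both days, with median differences of 1.66 and 1.62, and 12 of 13 T cell markers rose at day 3 and 9 at day 7. Of 12 monocyte and macrophage markers 3 rose at day 3 and 7 at day 7. Of the neutrophil markers 7 of 10 rose at day 3 (median 1.14), among them S100a8 by 4.17 and Retnlg by 2.28, and 1 of 10 at day 7 (median -0.19). Their mean level ranged from 5.57 to 6.37 in IL-12TD day 3 tumours and from 4.00 to 4.87 over the other 5 groups. The response was lower at day 7 for 7 of 10 neutrophil, 9 of 13 T cell and 3 of 3 B cell markers. It was lower for 1 of 14 pan-leukocyte and 1 of 12 monocyte and macrophage markers, against 18.4% of all genes. The part of these cells in the Schlafen differences was not tested beyond the comparison that follows.

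Each member was therefore set beside the mean of the pan-leukocyte markers of the same array. Relative to them, Slfn4 was higher with IL-12TD than with Mock cells at day 3, at 0.50 ± 0.50 against -0.93 ± 0.21 (SD, n = 4), a difference of 1.42 (two-sided exact permutation test, p = 0.0286, the smallest that 4 against 4 can give, adjusted p = 0.0444 over 14 tests). At day 7 it was lower by the same measure, at -1.42 ± 0.34 against -0.55 ± 0.21. Slfn1, Slfn2 and Slfn8 at day 3 differed by 0.12, 0.12 and -0.02 relative to the leukocyte markers, and did not pass (exact permutation, adjusted p = 0.554, 0.433 and 1). Slfn8 at day 7 differed by 0.30 (exact permutation, adjusted p = 0.218) and Slfn2 by -0.54 (0.12). Lower relative values passed for Slfn3, Slfn5 and Slfn9 on both days and for Slfn1 at day 7, from -0.80 to -1.59. The marker mean itself was 8.29 with IL-12TD and 6.73 with Mock cells at day 3, and 7.87 and 6.32 at day 7. A gene with an unchanged or weakly raised level therefore comes out lower by this measure. Slfn3, whose own level differed by -0.02 and 0.02, is such a gene.

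In all, 9 of the 14 relative differences passed, each at the smallest p the design allows, and fewer than 9 at that p cannot pass after adjustment. With T cell markers as the reference 8 values were at the smallest p (adjusted p = 0.05, exact permutation). With monocyte and macrophage markers 5 were (adjusted p = 0.08, exact permutation), so no value could pass with either reference, whatever its size. With monocyte and macrophage markers the differences that had passed were also smaller, except that of Slfn4 at day 3. At day 7 those of Slfn4 and Slfn9 were -0.11 and -0.04 there. The sizes did depend on the reference. The day 3 value of Slfn4 was 0.78 with T cell markers and 2.39 with monocyte and macrophage markers. Those of Slfn3 and Slfn9 at day 3 were -2.23 and -2.04 with T cell markers, and -0.62 and -0.43 with monocyte and macrophage markers. Slfn5 at day 3 was at -1.44 and 0.17 in the same order. The near-zero day 3 values of Slfn1, Slfn2 and Slfn8 became -0.52, -0.52 and -0.66 with T cell markers and 1.09, 1.09 and 0.96 with monocyte and macrophage markers.

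**Figure D4:**
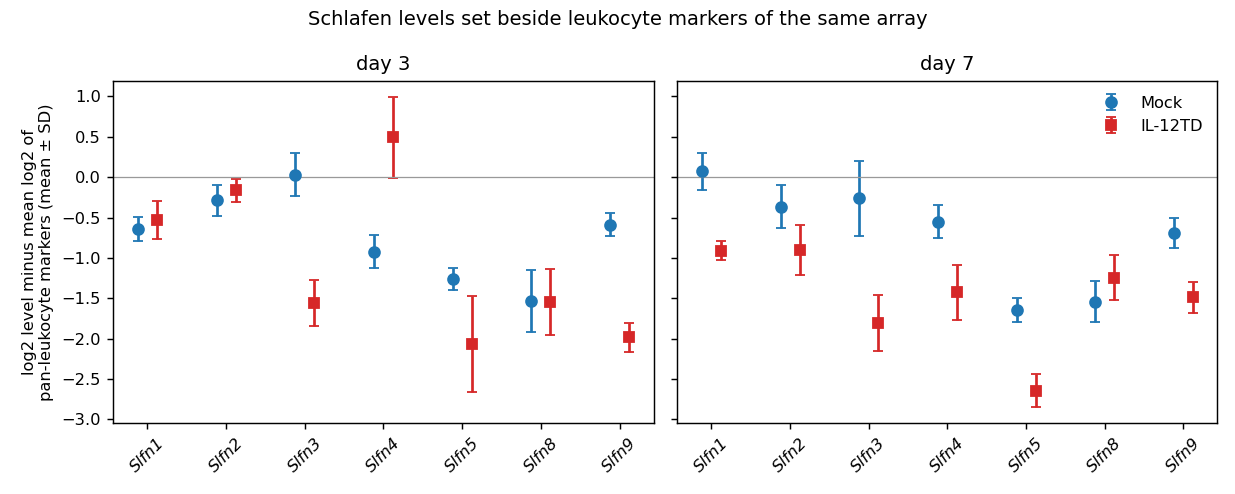
Log2 level of each measured Schlafen gene minus the mean log2 level of 14 pan-leukocyte markers on the same array, as mean and SD of 4 tumours, at day 3 (left) and day 7 (right). At day 3 Slfn4 is higher with IL-12TD cells (0.50 against -0.93), while Slfn1, Slfn2 and Slfn8 lie within the spread of the Mock tumours.

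The interferon pathway that induces this family was read from a list of ligands, receptors, kinases, transcription factors and inhibitors, of which 15 genes were analysed here. With IL-12TD against Mock cells 9 of 15 rose and 2 fell at day 3, and 12 rose and 0 fell at day 7, with medians of 0.61 and 1.25. The ligand Ifng rose by 5.72 ± 0.28 at day 3 (limma adjusted p = 4.6e-14) and by 4.88 ± 0.28 at day 7. The transcription factor Irf1 rose by 2.35 and then 3.87, and Usp18, an inhibitor of type I interferon signalling, by 1.74 and 2.65. In the direct test between days the response was higher at day 7 for 7 of the 15 and lower for 0. Over all genes 24.1% were called higher and 18.4% lower in this test. Among the 7 were the kinases Jak1 (0.85) and Jak2 (1.26), Irf1 (1.52) and Stat2 (1.24). A higher response need not be a higher level, since in Mock tumours 11 of the 15 fell between the days and 0 rose. Jak1, for one, changed by 0.03 in IL-12TD tumours and by -0.82 in Mock tumours. The response of Ifng itself changed by -0.84 (limma adjusted p = 0.0893). The pathway's mean level was from 8.12 to 8.37 in IL-12TD day 3 tumours and from 7.99 to 8.18 in IL-12TD day 7 tumours. Between these 2 groups Ifng itself fell by 2.31 ± 0.28 (limma adjusted p = 4.39e-07). Of the 15 genes 5 fell there, Usp18 among them (-0.76), and 4 rose, Irf1 (0.81) and Stat2 (1.58) among them. Between the same groups Slfn1, Slfn2, Slfn3, Slfn4 and Slfn5 fell, and Slfn8 and Slfn9 were not called.

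Genes linked to lymphocyte quiescence, the process Slfn2 is known for, did not move one way. Of 11 genes, 4 rose and 3 fell at day 3 with IL-12TD against Mock cells, and 2 rose and 1 fell at day 7, with medians of -0.09 and 0.04. Over all genes 17.3% were called higher at day 3 and 12.9% at day 7, and 5154 and 1760 of 19938 were called lower. Apart from the 4 that rose at day 3, these counts are near the background. Btg1, an antiproliferative gene, rose by 1.23 ± 0.18 at day 3 and 0.99 ± 0.18 at day 7, and Btg2 by 1.17 at day 3. Tob1 fell by 0.43 at day 3. Foxj1 rose by 0.47 at day 3 and fell by 0.41 at day 7.

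The genes whose levels were most like each member's are given by Pearson r over the 24 arrays, as a description, since the arrays share 6 groups. Slfn4 was most like Clec4e, a C-type lectin receptor of myeloid cells (r = 0.975), then Tarm1 and Cd40. Slfn1 was most like Cd40 (0.967), Vav1 and Nos2, and Slfn2 most like Lilrb4a (0.973), Coro1a, itself a pan-leukocyte marker here, and Bst1. Slfn8 was most like Tgm2 (0.972), Slamf8 and Fgl2, and Slfn5 most like Abcg1 (0.953), Ms4a6d and Spi1. Slfn9 was most like Asb13 (0.924), G3bp2 and the interferon-induced gene Ifit3, and Slfn3 most like Decr1 (0.927), Yars and Eif4a1, which are enzymes and a translation factor.

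Once each array's value was taken as its deviation from its group mean, members still differed in what they varied with, again as a description over 24 arrays. Slfn2 varied with the pan-leukocyte (r = 0.884), T cell (0.828) and monocyte and macrophage means (0.796) and with Slfn4 (0.847). It varied less with the interferon pathway mean (0.29). The uneven untreated day 3 tumours had the widest spread of the 6 groups for Slfn2 (SD 0.92) and for the pan-leukocyte mean (SD 0.68). They therefore weigh most in that value, and r without them was not computed. Slfn8 varied with the interferon pathway mean (0.873), and less with the pan-leukocyte mean (0.519) and the neutrophil mean (-0.03). For Slfn5 the value with monocyte and macrophage markers was 0.877 and with the pan-leukocyte mean 0.785. For Slfn1 these values were 0.813 and 0.795, so several members shared these partners. Slfn4 gave 0.836 with the pan-leukocyte, 0.782 with the monocyte and macrophage, 0.738 with the T cell and 0.636 with the neutrophil mean. With the pan-leukocyte, T cell and macrophage means, Slfn9 gave values from -0.17 to 0.01 and Slfn3 from -0.43 to -0.06.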

How the data were processed

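RNA of 24 mouse tumours was hybridised to whole-transcript Affymetrix arrays. The deposited series table holds log2 intensities per probeset, summarised with RMA per the submitters' processing notes; joint or separate normalization of the arrays is not given in the sources used here. Of 35556 probesets, 21789 were assigned to 1 gene, 1621 to several and 12146 to none by the platform annotation, and 21698 symbols matched RefSeq. The brightest probeset by mean was kept for each of 19938 genes.

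Group means were fitted to all 24 arrays with limma 3.58.1 (lmFit, eBayes; R 4.3.3), 4 replicates a group, with Benjamini-Hochberg adjustment over all genes and calls at an adjusted p under 0.05. Intervals are 95% limma intervals. The number of arrays limits the precision. Labels call replicates biological. Member levels relative to leukocyte markers were compared by exact permutation (70 splits) in Python 3.11.15. The fit was tested on simulated data. Alternatives were other normalizations, a dim filter, priors, array weights, probeset rules, the compared groups alone, the replicate number as a block and leaving out each array.

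All measured members, all other Schlafen symbols, the 3 genes most like each member, and up to 4 genes of each list by adjusted p are named. S100a8 and Retnlg are among those 4 for neutrophils. Members and lists were chosen with earlier results of these data known. Natural killer, dendritic, B cell and endothelial marker lists were also read: with IL-12TD against Mock cells 3 of 5, 1 of 5, 3 of 3 and 1 of 5 rose at day 3, and 3, 0, 0 and 1 at day 7. In the same order 0, 0, 0 and 2 fell at day 3, and 0, 1, 1 and 1 at day 7.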

Additional observations from a re-analysis of the deposited data

Results flagged for a closer look

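The response to IL-12TD against Mock cells differed between day 3 and day 7 for 3 Schlafen genes, by a test of the difference itself. It was lower at day 7 for Slfn4 (-2.31, limma adjusted p = 0.000343) and Slfn1 (-1.11, adjusted p = 0.00827) and higher for Slfn9 (0.59, adjusted p = 0.0267). Over all genes 24.1% were called higher and 18.4% lower in this test, so 3 of 7 is near the background share. Quantile-normalizing the data again gave Slfn9 a limma adjusted p of 0.154, and leaving out any of 4 arrays, one at a time, also ended its call. In each of the 42 sets of 4 arrays, 7 members in 6 groups, no array stood apart by Dixon's ratio at its 95% critical value.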

How the results depend on the processing

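The number of members called kept within 1.5 times its reported value in every comparison under all 9 alternative settings and with each array left out, as did the 9 relative calls under a second quantile normalization. With T cell or with monocyte and macrophage markers as reference, 0 of the 14 relative values passed, where 8 and 5 values were at the smallest p and 9 are needed for any to pass; sizes with T cell markers were as large or larger for Slfn3 (-2.23), Slfn9 (-2.04) and Slfn5 (-1.44) at day 3, while Slfn5 at day 3 turned to 0.17 with monocyte and macrophage markers. Of 630 single-member differences under alternative settings, 7 gained and 7 lost the threshold, and of 616 with an array left out, 7 gained and 16 lost it; 0 changed sign among those called.

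Deviations of same-numbered arrays from their group means were correlated at r from -0.277 to 0.524. Differently numbered arrays were not set beside them, so whether the numbers pair samples cannot be told. A replicate block left 5 members called at day 3 and 3 at day 7 for IL-12TD against Mock, and changed no call.

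Over all genes, quantile normalization called fewer lower in untreated tumours over time (2894 against 4820) and in the test between days (2581 higher against 4800, 2417 lower against 3667). Without dim genes, when 13424 genes and not 19938 were tested, higher calls for IL-12TD at day 3 were 1822 against 3456 versus Mock and 1770 against 3209 versus no treatment, and lower calls between days 1664 against 3667. Array weights gave 3924 higher calls against 2573 and 4023 lower against 1760 at day 7 versus Mock, a share higher of 49.4%. The share of calls that were higher moved from 59.4% to 47.1% (IL-12TD versus Mock, day 7) and from 31.8% to 46.2% (untreated, over time) with quantile normalization, from 57.8% to 45.4% with it and to 39.3% with centring (IL-12TD versus no treatment, day 7), and from 48.4% to 36.9% with centring (IL-12TD over time). The cause was not tested.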
